A study of Rattus norvegicus with 4 samples.

Results

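A window of rat chromosome 6 with transcript starts from 133400000 to 134800000 (build rn6), chosen to hold the Dlk1-Dio3 imprinted domain, was examined in long non-coding RNA (lncRNA) counts of cardiomyocytes. The transcripts described are the 18 lncRNAs of this window with a mean count of 5 or more over the libraries, out of 29 listed there and 17934 listed in all, of which 9894 reached the same mean. The cells were primary cardiomyocytes from newborn Sprague-Dawley rats (1 to 2 days old), kept in medium M199 with 2 mM carnitine, 5 mM creatine and 5 mM taurine. Normal glucose was 5 mmol/l with 28 mmol/l of the sugar alcohol mannitol to match the osmolality, and high glucose, a model of oxidative stress and apoptosis, was 33 mmol/l. Each medium was sampled at 24 h and at 48 h with 1 library each, 4 libraries in all. Differences between single libraries therefore have no replicate check, and their intervals cover counting error only.

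In mammals, Dlk1 (a membrane ligand related to the Notch ligands), Rtl1 (a gene derived from a retrotransposon) and Dio3 (a deiodinase that inactivates thyroid hormone) are expressed mainly from the paternal chromosome. The lncRNA Meg3, further non-coding RNAs and a large cluster of microRNAs are expressed from the maternal one. Meg3 is known as an lncRNA that acts on the p53 pathway, and microRNAs of the domain have been studied in the growth of newborn heart muscle cells. In the RefSeq annotation of another rat assembly, GRCr8, the order along chromosome 6 is Begain, Dlk1, Meg3, Rtl1 and Dio3, with 59 microRNA genes between Meg3 and Dio3. The deposited tables name no genes and 0 of the 18 identifiers matched that annotation, so no transcript is assigned to Meg3 or to another gene of the domain. Whether the window holds the whole domain, and the cell type of the cultures, could not be checked against named genes.

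The summed lncRNA counts were between 846946 and 1075428 per library. Levels are given as CPM, counts scaled to 1e+06 of a library total recovered from count, length and FPKM (11877895 to 15654067). On this scale 1 read corresponded to between 0.0639 and 0.0842 CPM. FPKM, which also divides by transcript length, is used to compare transcripts with each other.

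All 18 transcripts lay within 241520 bp, in 3 groups of overlapping spans, called loci here. The first locus (chromosome 6, 133658933 to 133691132, 32200 bp) held 12 of them and between 91.5% and 93.2% of the window's counts in each library. The second (133777248 to 133801417, 24170 bp) held 5, all spliced, and the third (133898907 to 133900452) held a single spliced transcript, NONRATT024662.2. The first locus began 258933 bp after the window's start, the loci were 86115 and 97489 bp apart, and no transcript with a mean count of 5 or more started in the last 899548 bp of the window. By identifier, 17 transcripts were from NONCODE, a catalogue of non-coding RNAs, and 1, MSTRG.18399.1, was newly assembled. Of the 18, 5 were single blocks, in which span equals length, all of them in the first locus. That is 27.8% of the 18, against 44.9% of the 9894 lncRNAs with a mean count of 5 or more. Their median length was 1306 nt against 790 nt, and their median level (mean of the 4 libraries) was 1.33 FPKM against 1.87 FPKM.

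**Figure D1:**
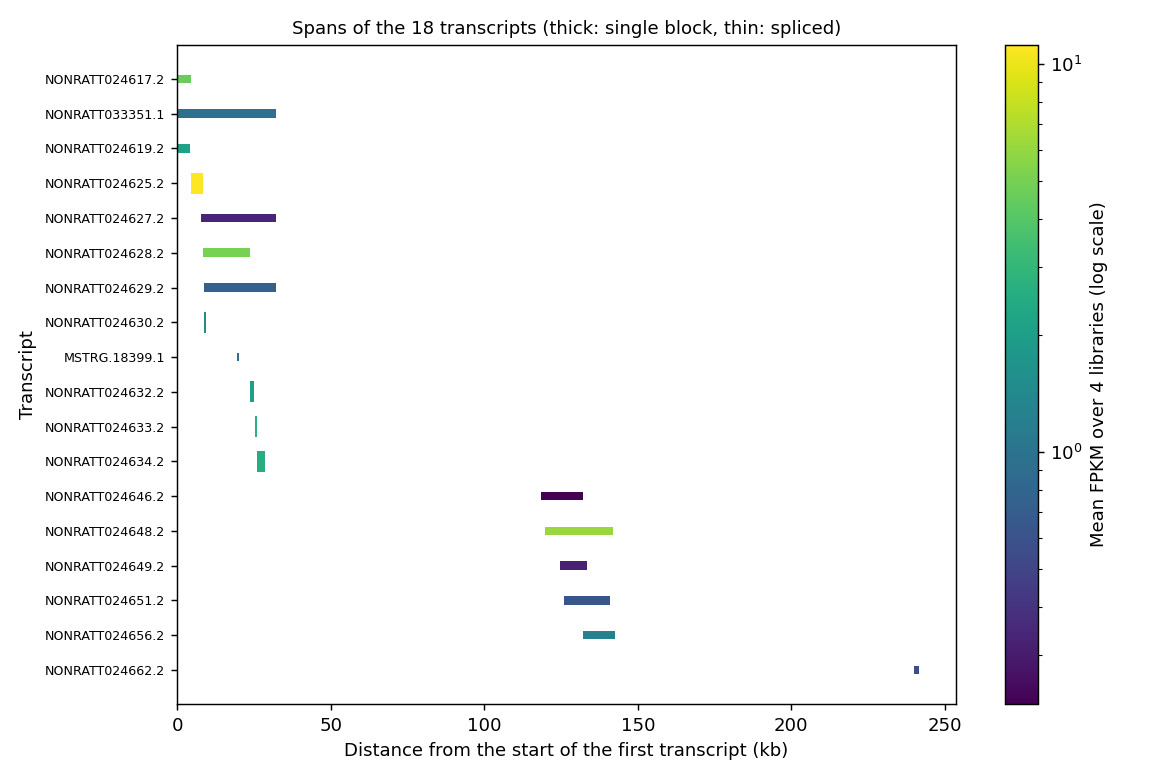
Spans of the 18 transcripts, drawn by distance in kb from the start of the first one (x axis), in order of start (y axis), coloured by mean FPKM over the 4 libraries on a log scale; thick bars are single blocks and thin bars spliced transcripts. The first locus holds 12 transcripts and the second 5, and NONRATT024662.2 stands alone at the right.

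Apart from 3 spliced transcripts that reached across it, much of the first locus was laid out as side-by-side pieces. NONRATT024617.2 (133658933 to 133663317, spliced, 1516 nt) was followed after 78 bp by NONRATT024625.2 (133663396 to 133667149, a single block of 3754 nt). After a further 109 bp came NONRATT024628.2 (133667259 to 133682473, spliced, 6449 nt). The single blocks NONRATT024632.2 (1237 nt), NONRATT024633.2 (625 nt) and NONRATT024634.2 (2566 nt) followed after gaps of 83, 400 and 149 bp. NONRATT033351.1 (133658937 to 133691129) spanned the whole locus and overlapped all 11 other transcripts there, and NONRATT024627.2 and NONRATT024629.2 spanned its last 24353 and 23557 bp. The tables give no strand, and the sources used here do not say how reads of overlapping transcripts were assigned. A read may therefore be counted under more than 1 transcript in a sum, and the interval of such a sum is then too narrow.

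The most abundant transcript was NONRATT024625.2, at 42.0 CPM (normal glucose) and 34.8 CPM (high glucose) at 24 h, and at 54.1 and 37.9 CPM at 48 h. NONRATT024628.2 stood at 30.1, 25.4, 43.0 and 31.7 CPM in the same order of libraries. In both, the normal glucose library at 48 h was highest and the high glucose library at 24 h lowest. Together they took 64.1%, 69.9%, 69.0% and 75.1% of the window's counts. Among the 9894 lncRNAs they ranked 285 and 386 by mean CPM, but 967 and 2296 by mean FPKM.

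Per length, NONRATT024625.2 led the window with a mean of 11.2 FPKM. The short spliced NONRATT024648.2 of the second locus (133778660 to 133800903, 455 nt) came next at 6.13 FPKM, from 34 to 47 reads per library. NONRATT024628.2 (5.05 FPKM) and NONRATT024617.2 (4.63 FPKM) followed. The other 14 transcripts had means between 0.224 and 2.74 FPKM. At the lower end of the window's range, NONRATT024627.2 (mean count 5.00) and NONRATT024646.2 (5.25) lay just inside the minimum of 5, and NONRATT024640.2 (4.50) just outside it. For 4 of the 18, NONRATT024627.2, NONRATT024646.2, NONRATT024662.2 and MSTRG.18399.1, the libraries other than the highest had a mean count under 5, so the minimum was met only through that library. The remaining 10 listed transcripts outside it, the 2 Ensembl entries among them, had mean counts of 2.5 or less.

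**Figure D2:**
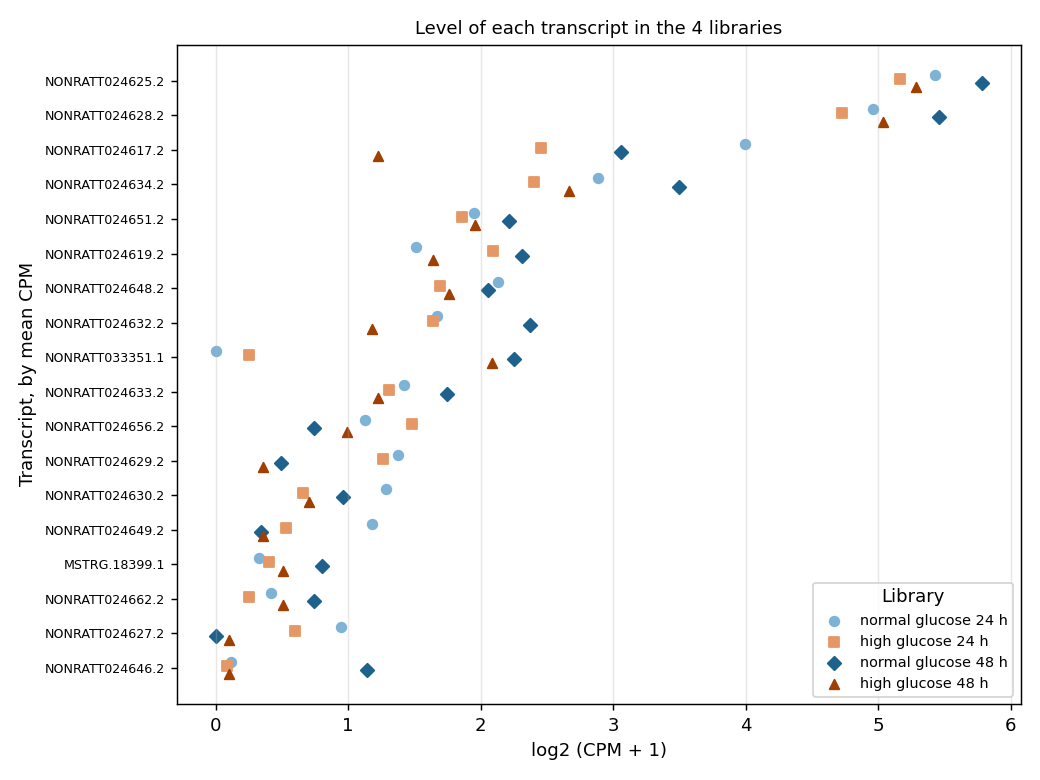
Level of each of the 18 transcripts as log2 (CPM + 1) on the x axis, ordered by mean CPM on the y axis, with 1 point per library. NONRATT024625.2 and NONRATT024628.2 stand apart at the top; the high glucose library at 48 h is the lowest point for NONRATT024617.2, and both 24 h libraries are lowest for NONRATT033351.1.

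The comparison of high with normal glucose asked how the medium changes these transcripts at each time. Summed over the 18 transcripts, the window held 1335 counts (112 CPM) in normal and 1348 counts (86.1 CPM) in high glucose at 24 h, and 2090 counts (141 CPM) in normal and 1318 counts (92.6 CPM) in high glucose at 48 h. Both high glucose libraries were below both normal glucose libraries. The sum was lower in high glucose, 1.31-fold at 24 h (exact 95% counting interval 1.21 to 1.41) and 1.52-fold at 48 h (1.42 to 1.63). On the log2 scale these are -0.38 and -0.60. As a share of the lncRNA counts, the window took 0.158%, 0.126%, 0.194% and 0.146% in the order above. In bulk RNA, fewer cells of a type and less RNA per cell cannot be told apart.

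Over all 9894 lncRNAs the median log2 ratio on the scale of log2 (CPM + 1) was -0.03 at 24 h and -0.11 at 48 h, against -0.14 and -0.29 over the 18. Scaling by TMM factors, an edgeR normalisation, moved the median of all lncRNAs at 48 h to 0.00 and the median of the 18 to -0.20, and the window sum at 48 h was then -0.41 instead of -0.60. At 24 h the sum was -0.33 with these factors.

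The first locus holds between 91.5% and 93.2% of the window's counts, so its sums follow those of the window. They were 103, 78.8, 131 and 85.6 CPM, 1.31-fold lower (1.21 to 1.42) in high glucose at 24 h and 1.53-fold lower (1.42 to 1.65) at 48 h. For the second locus the sums were 8.76, 7.15, 8.95 and 6.61 CPM. Its 24 h ratio had a counting interval that included 1 (1.22-fold lower, 0.928 to 1.61), and at 48 h it was 1.35-fold lower (1.03 to 1.78). The 48 h sums of the second locus include NONRATT024646.2, with 18 reads in normal and 1 read in high glucose. This transcript met the count minimum only through normal glucose at 48 h. That favoured a lower ratio, so the 48 h interval of the second locus is no test. With TMM factors the 48 h interval of the second locus also included 1 (1.18-fold lower, 0.901 to 1.56), as it did under the other scalings, while that of the first locus did not (1.34-fold lower, 1.24 to 1.44). Without the 2 most abundant transcripts, the rest of the window was 1.55-fold lower (1.36 to 1.78) at 24 h and 1.89-fold lower (1.65 to 2.17) at 48 h. Much of the 24 h difference lay in a single transcript, NONRATT024617.2. It went from 14.9 to 4.47 CPM at 24 h, where the rest as a whole went from 40.3 to 25.9 CPM. At 48 h it went from 7.34 to 1.34 CPM, and the rest as a whole from 43.6 to 23.1 CPM.

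Windows of the same length on either side were summed in the same way, and at 48 h the window before was also lower in high glucose. The 6 lncRNAs of the window before had sums of 30.5 and 33.4 CPM at 24 h, where the interval of the ratio included 1 (1.10-fold higher in high glucose, 0.957 to 1.26), and of 31.8 and 22.6 CPM at 48 h, 1.40-fold lower (1.22 to 1.62). The 17 of the window after were 1.11-fold lower (1.01 to 1.21) at 24 h, and at 48 h the interval included 1 (1.05-fold higher, 0.960 to 1.16). With TMM factors both calls of the window after changed, to 1.07-fold lower (0.975 to 1.16) at 24 h and 1.21-fold higher (1.10 to 1.33) at 48 h. These intervals cover counting error only, and the differences between the windows were not tested.

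**Figure D3:**
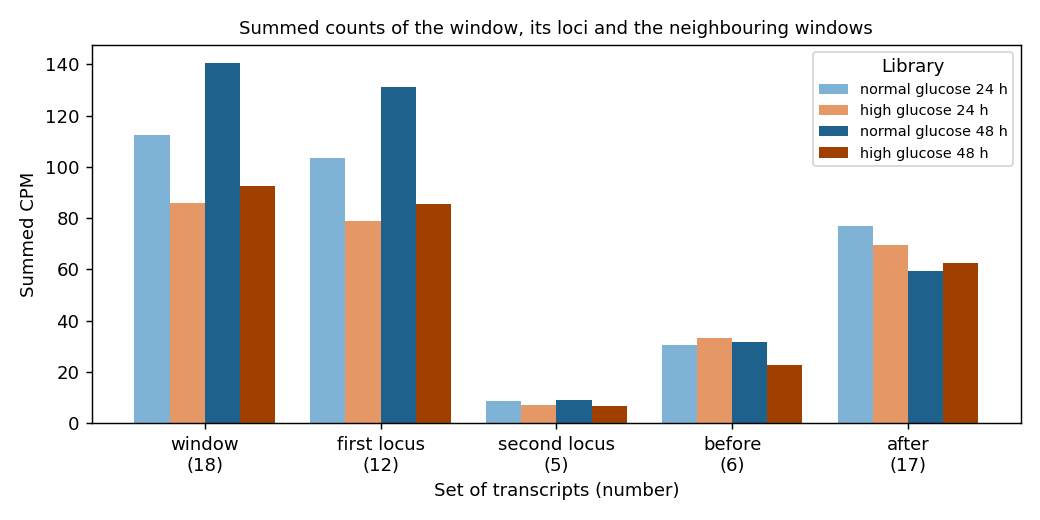
Summed CPM (y axis) of the window, its first and second locus and the neighbouring windows of equal length (x axis, number of transcripts in brackets), with 1 bar per library. In the window the normal glucose libraries stand at 112 and 141 CPM and the high glucose libraries at 86.1 and 92.6 CPM.

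Of the 18 transcripts, 14 were lower in high glucose by any size at 24 h and 15 at 48 h, where 54.8% and 62.2% of all lncRNAs were lower. In 12 the ratio was below 1 at both times (35.4% of all), and in 1, NONRATT024656.2, it was above 1 at both (18.2% of all). For 8 transcripts both high glucose libraries were below both normal ones in CPM, against 25.0% of all lncRNAs, and for 0 they were above (11.8%). With TMM factors the 8 became 7 (18.2% of all), or 6 (16.9%) when each library was divided by its own lncRNA total. Counting intervals excluded 1 for 6 lower (9.11% of all lncRNAs) and 1 higher (6.63%) at 24 h, and for 7 lower (18.7%) and 0 higher (8.09%) at 48 h. Better covered transcripts have narrower intervals, and coverage was not matched in this comparison. With TMM factors the counts of lower transcripts were 5 (7.73%) and 7 (11.7%). The reads of overlapping transcripts are not independent, so these are not 18 separate observations. NONRATT024646.2, NONRATT024662.2 and MSTRG.18399.1 met the count minimum only through normal glucose at 48 h, and NONRATT024627.2 only through normal glucose at 24 h. This favoured a lower value in high glucose, so they add nothing to the 15 and the 14. Nor do NONRATT024646.2 and NONRATT024662.2 add to the 12, or NONRATT024646.2 to the 8 and to the 7 at 48 h. At 24 h NONRATT024646.2 had 1 read in each medium, so its order there came from the library totals.

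At least 2-fold differences were few. At 24 h, 1 of the 18 was at least 2-fold apart on log2 (CPM + 1), against 4.35% of all lncRNAs, and at 48 h 3 were, against 5.97%. All of these were lower in high glucose. Of the 3 at 48 h, NONRATT024646.2 met the count minimum only through the normal glucose library at 48 h, so its ratio against that library was set by the minimum and adds nothing to the count. Among all lncRNAs, 0.424% were at least 2-fold lower at both times, as 1 transcript of the window was.

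That transcript was NONRATT024617.2, at the start of the first locus. At 24 h it stood at 14.9 CPM (177 reads) with normal glucose and 4.47 CPM (70 reads) with high glucose, and at 48 h at 7.34 CPM (109 reads) and 1.34 CPM (19 reads). Both high glucose libraries were below both normal ones, and within each medium the 48 h library was lower. In high glucose it was thus 3.33-fold lower (2.51 to 4.46) for 24 h and 5.49-fold lower (3.35 to 9.47) for 48 h. In the edgeR fit over both times its log2 change was -2.07, with an unadjusted p of 0.00238 and an adjusted p of 0.465.

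NONRATT024619.2 (133658940 to 133663209, spliced, 1374 nt) shares nearly the whole span of NONRATT024617.2 but not its values. At 24 h it stood at 1.85 CPM with normal and 3.26 CPM with high glucose, 1.76-fold higher (1.05 to 3.05). At 48 h it stood at 3.97 and 2.11 CPM, 1.88-fold lower (1.19 to 3.03), the opposite direction. NONRATT024617.2 took 88.9% of the 199 counts of this pair in normal glucose at 24 h (Wilson 95% interval 83.8 to 92.6), 57.9% of 121 in high glucose at 24 h (48.9 to 66.3), 64.9% of 168 in normal glucose at 48 h (57.4 to 71.7) and 38.8% of 49 in high glucose at 48 h (26.4 to 52.8). The counts of the pair together were lower in high glucose, 2.17-fold (1.72 to 2.74) at the earlier time and 3.28-fold (2.38 to 4.61) at the later one. Since the spans of the pair nearly coincide, its shares and separate ratios are those of the counts as deposited. How reads were divided within the pair was not tested, and the intervals do not cover it.

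The pieces further along the first locus had smaller ratios. NONRATT024625.2 was 1.21-fold lower (1.07 to 1.37) at 24 h and 1.43-fold lower (1.28 to 1.59) at 48 h. For NONRATT024628.2 the values were 1.18-fold (1.02 to 1.37) and 1.36-fold lower (1.20 to 1.53). NONRATT024634.2, at the far end of the row of pieces, stood at 6.40, 4.28, 10.3 and 5.34 CPM, 1.49-fold (1.06 to 2.11) and 1.93-fold lower (1.45 to 2.57). All 3 were thus lower in high glucose at both times, with intervals that excluded 1, except that the 24 h interval of NONRATT024628.2 included 1 under each of the 3 other scalings (1.14-fold lower with TMM factors, 0.985 to 1.32). NONRATT024632.2 differed at 48 h, with 4.17 CPM against 1.27 CPM for high glucose (3.30-fold lower, 1.93 to 5.92), while at 24 h its 2.19 and 2.11 CPM were within counting error. NONRATT024633.2 had intervals that included 1 at both times. The short NONRATT024630.2, inside NONRATT024628.2, was 2.49-fold lower (1.05 to 6.34) at 24 h, from 9 against 17 reads. Its 48 h interval included 1.

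**Figure D4:**
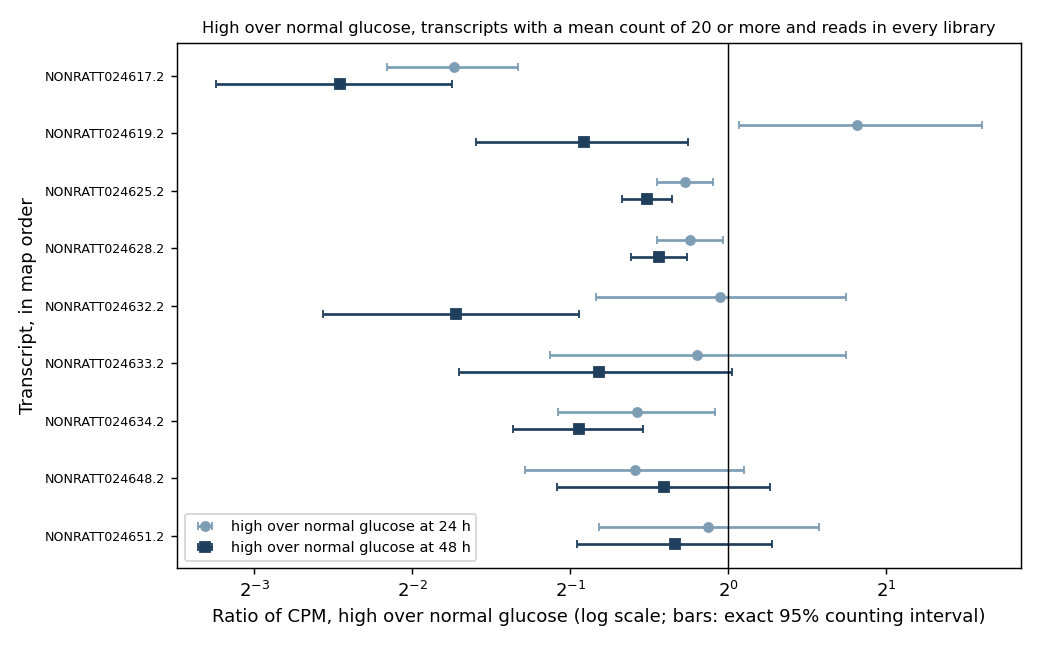
Ratio of CPM in high over normal glucose (x axis, log scale) for the 9 transcripts with a mean count of 20 or more and reads in every library, in map order (y axis); points are ratios at 24 h and squares at 48 h, and bars are exact 95% counting intervals. NONRATT024617.2 lies farthest to the left at both times, and NONRATT024619.2 lies right of 1 at 24 h and left of it at 48 h.

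In the second locus, NONRATT024646.2 (133777248 to 133791177, spliced, 1596 nt) had 18 reads in normal glucose at 48 h and 1 read in each of the other libraries. It was 17.2-fold lower in high glucose at 48 h, with a wide interval (2.72 to 718), and its log2 (CPM + 1) ratio of -1.05 sat at the 2-fold threshold. A high value in that single library is what brought it past the minimum count, so these values describe the library and are no test. NONRATT024648.2, the best covered there per length, stood at 3.37, 2.24, 3.16 and 2.39 CPM, and its intervals included 1 at both times. The longest, NONRATT024651.2 (4700 nt, 2.86, 2.62, 3.63 and 2.88 CPM), and NONRATT024656.2 (1.18, 1.79, 0.673 and 0.984 CPM) also had intervals that included 1. NONRATT024649.2 had 15 reads in normal glucose at 24 h and between 4 and 7 in the other libraries. At 24 h it was 2.82-fold lower in high glucose (1.08 to 8.19), and its 48 h interval included 1. The lone NONRATT024662.2 had between 3 and 10 reads per library, too few to show a difference at this depth.

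Fitted over both times with edgeR's quasi-likelihood test and Benjamini-Hochberg adjustment over 9894 lncRNAs, 0 of the 18 transcripts passed an adjusted p of 0.05 for glucose, and 3 lncRNAs (0.0303%) did in all. At an unadjusted p under 0.05 there were 3 of the 18, all lower (5.0% of all lncRNAs passed in either direction): NONRATT024617.2, NONRATT024634.2 and NONRATT024646.2, the last of which met the count minimum only through 1 library. The 3 became 2 with TMM factors, 1 when libraries were divided by their lncRNA totals, 1 with DESeq2, 1 with limma and 0 without the high glucose library at 48 h. DESeq2 called 0 of the 13 to which it gave an adjusted p, and limma on log2 (FPKM + 1) called 0 of the 18. The times stood in for replicates here, with 1 residual degree of freedom; a glucose effect present at 1 time only adds to the spread of this fit.

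The comparison of 48 h with 24 h asked which transcripts moved with time in each medium. It uses the same 4 libraries as the comparison of the media, so the 2 sets of ratios are not independent. In normal glucose the window sum was 1.25-fold higher at 48 h (1.17 to 1.34). In high glucose the interval just included 1 (1.08-fold higher, 0.996 to 1.16), but it excluded 1 under each of the 3 other scalings (1.18-fold higher, 1.09 to 1.27, with TMM factors). Summed as FPKM, which gives short transcripts more weight, the log2 ratios were 0.17 in normal and -0.050 in high glucose, against 0.32 and 0.11 from counts. Of the 18, 8 were higher at 48 h by any size in both media (22.0% of all lncRNAs) and 5 lower in both (29.9%). The highest library was normal glucose at 48 h for 11 of the 18 (29.9% of all). Among these 11, and among the 8, are NONRATT024646.2, NONRATT024662.2 and MSTRG.18399.1, which met the count minimum only through that library. NONRATT024627.2, among the 5, met it only through normal glucose at 24 h. For these transcripts the minimum favoured the direction, so they add nothing to the counts. Counting intervals with time excluded 1 for 7 higher (7.8% of all lncRNAs) and 4 lower (7.56%) in normal glucose. In high glucose they excluded 1 for 2 higher (8.76%) and 2 lower (16.1%). Coverage was not matched here either. NONRATT024646.2, among the 7, and NONRATT024627.2, among the 4, add nothing for the same reason.

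At least 2-fold differences with time on log2 (CPM + 1) were found for 2 transcripts in normal glucose (4.27% of all lncRNAs) and 2 in high glucose (5.82%). NONRATT033351.1, the transcript that spans the whole first locus (spliced, 1889 nt), was one of them in both media, the only 1 of the 18 that was at least 2-fold higher in both (0.344% of all). It was not listed in normal glucose at 24 h and had 3 reads in high glucose at 24 h, against 56 reads (3.77 CPM) and 46 reads (3.23 CPM) at 48 h. Both 48 h libraries were thus above both 24 h libraries. In normal glucose the 48 h level was at least 14.9-fold higher than a floor of 3 counts in the 24 h library (the exact 95% lower limit of the ratio was 11.7), and in high glucose the ratio was 16.9 (5.42 to 84.8). In the edgeR fit over both media its unadjusted p was 0.00310 and its adjusted p 0.430. NONRATT024646.2 was the other transcript in normal glucose (18 reads against 1, 14.4-fold higher, 2.27 to 600, with the minimum met only through the library with 18) and NONRATT024617.2 the other in high glucose (3.35-fold lower, 1.99 to 5.89). As plain ratios of CPM more transcripts were past 2-fold. Among them in normal glucose were NONRATT024619.2 (2.14-fold higher, 1.29 to 3.68) and NONRATT024649.2 (4.69-fold lower, 1.49 to 19.4).

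The other transcripts that reach the far end of the first locus had the opposite order. NONRATT024629.2 (133667576 to 133691132, 1216 nt) had 19 and 22 reads at 24 h and 6 and 4 reads at 48 h, in normal and high glucose, 3.96-fold lower (1.52 to 12.1) and 5.00-fold lower (1.70 to 19.95). NONRATT024627.2 (133666775 to 133691127, 1121 nt) had 11 and 8 reads at 24 h, and 0 and 1 at 48 h. NONRATT024627.2 met the count minimum only through normal glucose at 24 h, so its difference from that library was set by the minimum and is no test. The ends of NONRATT033351.1, NONRATT024627.2 and NONRATT024629.2 lie within a few bases of each other, and NONRATT033351.1 starts with the pair at the other end of the locus. Of the counts of these 3, NONRATT033351.1 took 0 of 30 in normal glucose at 24 h. A floor of 3 counts of 30 would be a share of 10.0%, and the Wilson 95% upper limit was 11.4%. In high glucose at the same time NONRATT033351.1 took 3 of 33 (9.09%, Wilson 95% interval 3.14 to 23.6). At 48 h it took 56 of 62 (90.3%, 80.5 to 95.5) and 46 of 51 (90.2%, 79.0 to 95.7). Their sum was higher at 48 h, 1.65-fold (1.05 to 2.65) with normal glucose and 1.70-fold (1.08 to 2.72) with high glucose. Since their spans overlap, these shares are those of the counts as deposited, and how reads were divided among the 3 was not tested.

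**Figure D5:**
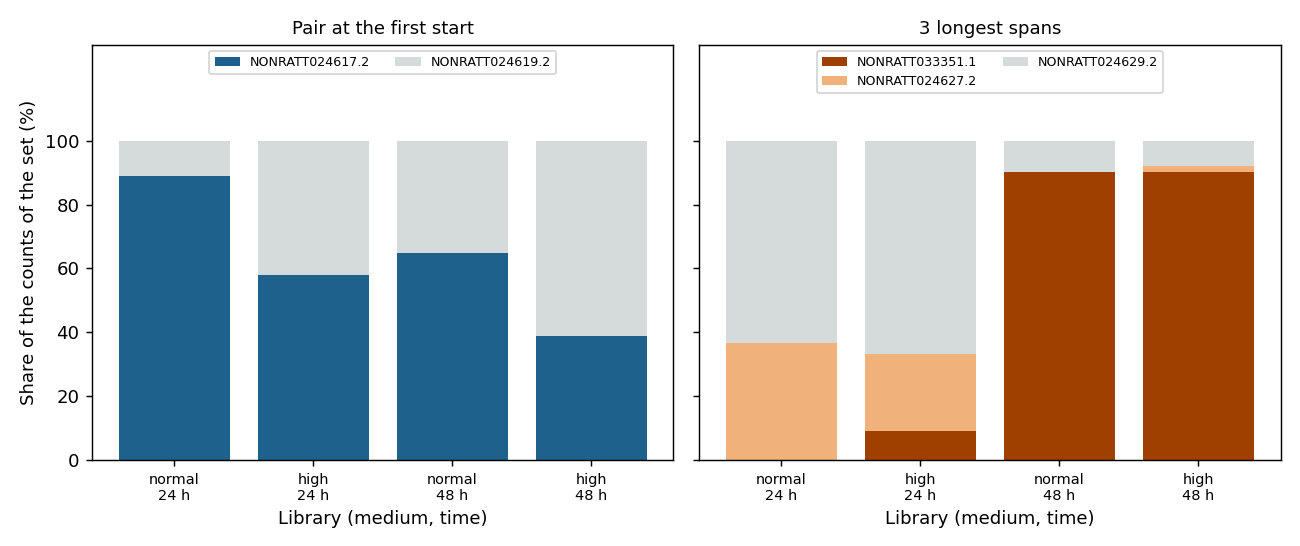
Share of counts in percent (y axis) per library (x axis) within the pair at the first start of the first locus (left) and within its 3 longest spans (right). NONRATT033351.1 takes 0% and 9.09% at 24 h and 90.3% and 90.2% at 48 h, and NONRATT024617.2 takes between 38.8% and 88.9% of the pair.

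The abundant pieces differed less with time. NONRATT024625.2 was 1.29-fold higher at 48 h in normal glucose (1.15 to 1.44), and in high glucose its interval included 1, though not under the 3 other scalings (1.19-fold higher, 1.06 to 1.35, with TMM factors). NONRATT024628.2 was higher as well, 1.43-fold (1.26 to 1.63) with normal and 1.25-fold (1.09 to 1.43) with high glucose. With normal glucose NONRATT024634.2 was 1.61-fold higher (1.21 to 2.15) and NONRATT024632.2 1.91-fold higher (1.19 to 3.14). In high glucose the intervals of both included 1. NONRATT024617.2 went the other way, 2.03-fold lower (1.59 to 2.60) in normal glucose and 3.35-fold lower in high glucose. Counts per library were small for NONRATT024630.2 (9 to 17), a single block inside NONRATT024628.2, and for MSTRG.18399.1 (3 to 11), and the intervals of both with time included 1.

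For time, edgeR's quasi-likelihood test with Benjamini-Hochberg adjustment called 0 of the 18 transcripts, and 3 lncRNAs (0.0303%) in all. At an unadjusted p under 0.05 there were 5 of the 18, against 4.72% of all lncRNAs, of which NONRATT033351.1 and NONRATT024646.2 were higher and NONRATT024617.2, NONRATT024627.2 and NONRATT024629.2 lower. Of these, NONRATT024646.2 and NONRATT024627.2 met the count minimum only through 1 library where they were high, so their p-values are no independent evidence. DESeq2 called 0 of the 11 to which it gave an adjusted p, which left out NONRATT024627.2, NONRATT024629.2 and NONRATT024646.2, and limma called 0 of the 18. Without a filter on low counts, edgeR called 1, NONRATT033351.1, with an adjusted p of 0.0269.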

How the data were processed

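Raw read counts per lncRNA transcript and FPKM values were deposited by the authors, per the file headers. Only transcripts with reads are listed, and an unlisted one was taken as 0. The submitters' processing notes name TopHat2 2.1.0, Cufflinks and the builds rn6 and Rnor_6.0. These sources do not give the counting tool, its strand setting or the annotation. Strand-specific total RNA libraries were made, per the labels' protocols, and nothing states separate cultures or batches.

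The library total was recovered as the median of count divided by FPKM and length, and at most 2 transcripts per library were off by over 1%. The length of NONRATT033351.1 was recovered in the same way. A locus is a chain of spans that share 1 base or more. Ratios have exact 95% intervals (Clopper-Pearson on the split of the 2 counts) and shares Wilson intervals. Intervals cover counting error only. They assume independent reads. PCR copies, which cannot be told from separate molecules, and reads counted under more than 1 transcript break this, so the intervals may be too narrow. Ratios called 2-fold used log2 (CPM + 1), which understates low transcripts, and printed folds are ratios of CPM.

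edgeR 4.0.16 (estimateDisp, glmQLFit, glmQLFTest) used the recovered totals and terms for medium and time, on transcripts with a mean count of 5 or more. It was tested on simulated data with large glucose changes and the same spread for every transcript. That run does not show what the fit could detect at the smaller ratios found here. DESeq2 1.42.0 and limma 3.58.1 were alternatives. With no replicate libraries, p-values of the fit with both terms rest on the 1 residual degree of freedom left after medium and time. It reflects how far the difference between the media varied between the times, with spread estimates shared across transcripts. Transcripts named were the 10 highest by mean CPM, the 2 highest and 2 lowest ratios per comparison and any past a threshold, and the others were added so that all 18 are accounted for. The window, its members and these lists were chosen with earlier results of these data known. The sum of the 3 longest spans and that of the pair at the first start were chosen after their values were seen.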

Additional observations from a re-analysis of the deposited data

Results flagged for a closer look

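NONRATT024619.2, at the start of the first locus, differed between high and normal glucose in opposite directions at the 2 times, with counting intervals that excluded 1 at each. Its log2 (CPM + 1) ratio of high over normal glucose was 0.58 at 24 h and -0.68 at 48 h, from 51 against 22 reads and 30 against 59 reads. With 1 library per group the difference between the times was not tested. NONRATT024617.2, which overlaps NONRATT024619.2 over nearly its whole span, was lower in high glucose at both times. How reads were divided within this pair was not tested.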

How the results depend on the processing

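No paired analysis was possible because each group has 1 library and the labels give no replicate numbers; the edgeR fit itself compares the media with time as a term. With other scalings the log2 ratio of the window sum for glucose at 48 h moved from -0.60 to -0.41 (TMM factors), -0.40 (median-of-ratios size factors) and -0.42 (libraries rescaled to the same sum). Summed as FPKM the 48 h difference was larger instead, with 55.6 FPKM in normal and 34.2 FPKM in high glucose. For 48 h over 24 h in high glucose the log2 ratio of the window sum moved from 0.11 to 0.24 with TMM factors and 0.24 with size factors, and to -0.050 with FPKM summed. In normal glucose it moved from 0.32 to 0.17 with FPKM summed. At 24 h the glucose ratio ran from -0.32 to -0.48 over its 6 alternatives. Summed per locus, 0 of the 3 loci were 2-fold apart in any of the 4 comparisons, against 1, 3, 2 and 2 transcripts. For time in normal glucose the 2 became 1 under each of the 3 other scalings and 5 with a pseudocount of 0.5 CPM. Counts of transcripts lower by any size moved by at most 1 with the scalings, an alternative chosen after seeing the data. edgeR called 0 of the 18 for glucose and for time with TMM factors, with the same sum, with a mean FPKM of at least 1 (which tests 10 of the 18), and 1 for time without the filter on low counts. Fits that omitted 1 of the 4 libraries also dropped the second term and set 1 library against 2 (the lone one is assumed to vary like the others). They called 0 of the 18 as well (lowest and highest 0), as did the fit of all 4 libraries without the second term, but at this size that 0 says nothing on stability. The smallest adjusted p among the 18 ran from 0.0740 to 1 for glucose and from 0.0269 to 0.903 for time over all tools. Over all lncRNAs, fits of all 4 libraries with both terms called from 0 to 45 for glucose and from 0 to 71 for time, against 3 and 3. Without the second term, calls for time were 14 with all 4 libraries and 21 to 77 with 1 omitted, and for glucose 1 and 0 to 1. At an unadjusted p under 0.05, the 3 of the 18 for glucose became 1 with the same sum, DESeq2, limma and no second term, and 0 to 2 with 1 library omitted. The 5 for time became 2 with DESeq2, 1 with a mean FPKM of at least 1, 3 with no second term and 3 to 7 with 1 library omitted. Counting intervals under the other scalings were added after seeing the data. Of 240 ratios of 15 named transcripts under other scalings and pseudocounts, 231 stayed on the same side of 2-fold, 5 were no longer past it, 4 newly passed it and 0 changed direction past it. Depth limits the 8 transcripts with a mean count under 20, where 1 read is a large part of a value.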
